A study of Danio rerio with 2 samples.

Results

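Glial fibrillary acidic protein (gfap), vimentin (vim), the calcium-binding protein S100b (s100b) and the glutamine synthetase genes glula and glulb are genes by which radial glia of the fish brain are commonly recognised. They were taken from the deposited count table by their symbols, and all 5 were found, each as 1 row, among the 27095 genes that the table holds after rows of the same gene are summed. The study compared the brains of wild-type male zebrafish with the brains of wild-type female zebrafish by messenger RNA sequencing, with 1 library per sex, each made from the pooled brains of 5 fish. No age, strain or treatment is given in the labels, both groups are whole brain of the same genotype, and a pool shows no spread between its fish. The question behind the comparison is which transcripts are more abundant in the brain of either sex.

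Radial glia are the long glial cells that line the ventricles of the fish brain and send processes to its outer surface. In adult zebrafish they persist in large numbers, serve as neural stem cells, and carry out much of the work that astrocytes do in mammals. Their filaments are built from proteins such as Gfap and vimentin. Glutamine synthetase joins glutamate with ammonia to form glutamine, and in the mammalian brain it is the step by which astrocytes clear transmitter glutamate and return it to neurons as glutamine. S100b is not a cytoskeletal protein but a small EF-hand calcium sensor, which in mammals is made mainly by astrocytes.

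Estimated counts came to 62248792 reads for the male library and 64300988 for the female one. As each sex has 1 library, no test was possible and no p-value is given. Differences lack a replicate check, and the intervals are 95% intervals of counting error alone. Levels are in CPM, that is, counts scaled by size factors and divided by the mean library total. Every ratio is the log2 of the male level over the female level, and a negative ratio means a higher level in the female library. A gene with a mean of at least 1 CPM is called measured, which left 14756 genes, and all 5 genes were far above that level. Transcript lengths were not used here, so a level is compared between the libraries for the same gene and not between genes. In 10315 genes (38.1%) the table lists 0 in both libraries, among them the vesicular glutamate transporter gene slc17a6b, which neurons of the brain use, so a listed 0 may be a failed estimate. Such zeros recurred on chromosome 7, where slc17a6b, slc1a2a, got2b, cdh5 and rlbp1a were all listed at 0. So were kcnj10a, mdka, mfge8a, ccnb2 and tyms. On the same chromosome ndrg2, which lies nearer its start (from 4109900) than all of these, had 22711 male against 23874 female reads. The cause was not tested, and a list member without reads is not shown to be absent from brain.

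All 5 genes had a negative ratio, and in all 5 the counting interval lay below 0. The differences were small, from 1.04-fold for glulb to 1.30-fold for gfap, with vim at 1.07-fold, glula at 1.18-fold and s100b at 1.26-fold between them. None of the 5 reached 2-fold, a size at which 2.70% of measured genes were higher in the female library and 1.06% in the male library (399 and 156 genes, or 328 and 203 with the trend on expression level removed). Under a lower size rule, a level at least 25% higher in either library with an interval of the fold that excludes 1, gfap and s100b passed with a higher level in the female library, and none passed in the other direction. At that size 12.5% of all measured genes were higher in the female library and 7.18% in the male library, or 1843 and 1060 genes. That excess on the female side depends on the scaling, since it came to 1386 female and 1390 male genes with the trend on expression level removed and to 2135 and 857 by library totals. The median ratio of the 5 was -0.24, against -0.0014 over all measured genes, of which 50.3% lay below 0. In whole brain, fewer cells of a type and less RNA per cell cannot be told apart, so none of these values shows a difference within radial glia.

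**Figure D1:**
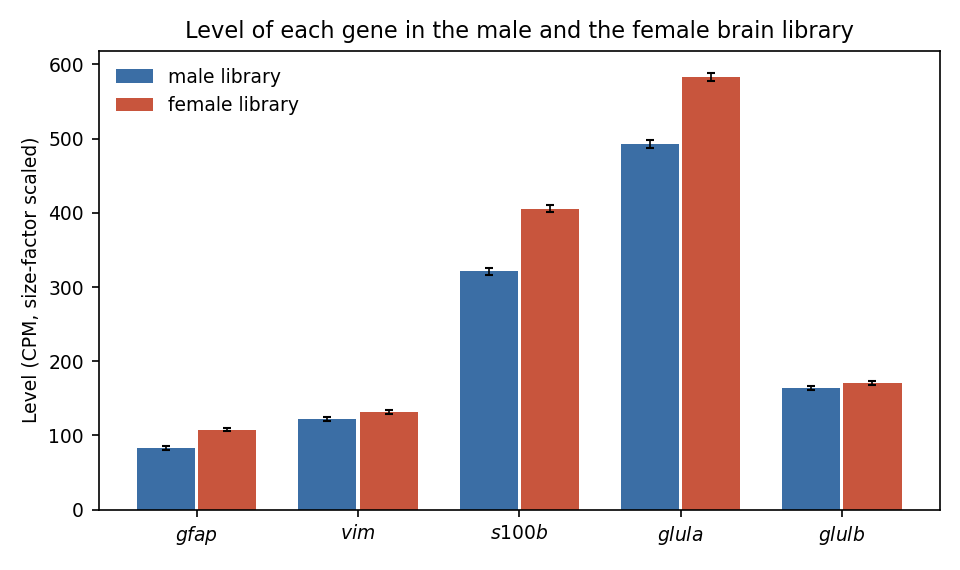
Level of each of the 5 genes in CPM (linear axis from 0) in the male and the female library, 1 library each; error bars are exact Poisson 95% intervals of the count. The female bar is the taller of each pair, clearly so for gfap (82.9 against 108 CPM), s100b (321 against 406 CPM) and glula (493 against 583 CPM); bars of different genes are not on a scale per length.

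The intermediate filament gene gfap, whose protein forms the glial filaments of radial glia and astrocytes, had 5086 reads in the male library against 7042 in the female one. It lies on the minus strand of chromosome 3, from 31929532 to 31941457 (Zv9, coordinates of the deposited table). Scaled, this was 82.9 CPM (interval 80.6 to 85.2) against 108 CPM (105 to 110). The female library was thus the higher one, by 1.30-fold (interval 1.26 to 1.35), a log2 ratio of -0.38 (interval -0.43 to -0.33). This was the widest difference among the 5 genes. In the deposited normalized columns, which are on a log2 scale, gfap stood at 12.35 (male) and 12.74 (female), a difference of the same size.

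The vimentin gene vim encodes a filament protein that radial glia share with vessel and connective tissue cells. It lies on the plus strand of chromosome 24, from 33381675 to 33398137 (Zv9). The table gives 7504 male and 8550 female reads, or 122 CPM (interval 120 to 125) against 131 CPM (128 to 134). The libraries differed by 1.07-fold (interval 1.04 to 1.11), a log2 ratio of -0.10 (interval -0.14 to -0.05). The ratio of vim lay closer to 0 than that of gfap, although both encode type III filament proteins. The difference between the 2 ratios was -0.28 (gfap minus vim, interval -0.35 to -0.21).

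Put as a share within each library, which no scaling between libraries can move, gfap took 40.4% of the summed gfap and vim reads in the male library (interval 39.5 to 41.3) and 45.2% in the female library (44.4 to 45.9). The intervals of the shares did not overlap. These are shares of reads, not of transcripts, since the genes were not put on a scale per length.

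The calcium sensor gene s100b had 19701 reads in the male library against 26465 in the female one. It lies on the minus strand of chromosome 22, from 13991251 to 13995408 (Zv9). Its level was 321 CPM (interval 317 to 326) against 406 CPM (401 to 411). That is 1.26-fold higher on the female side (interval 1.24 to 1.29), a log2 ratio of -0.34 (interval -0.36 to -0.31). The ratio of s100b was close to that of gfap, and the interval of their difference included 0 (gfap minus s100b -0.04, interval -0.10 to 0.02), which does not show that they are equal.

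Of the glutamine synthetase genes, glula had the most reads, with 30235 male against 38048 female reads. It lies on the minus strand of chromosome 2, from 19460035 to 19463959 (Zv9). Its level was 493 CPM (interval 487 to 498) against 583 CPM (577 to 589), or 1.18-fold higher in the female library (interval 1.17 to 1.20) with a log2 ratio of -0.24 (interval -0.26 to -0.22). The paralogue glulb, on the plus strand of chromosome 6 from 19951351 to 19956201 (Zv9), had 10059 male against 11139 female reads. At 164 CPM (interval 161 to 167) against 171 CPM (168 to 174) it was the most level of the 5 genes, 1.04-fold higher in the female library (interval 1.01 to 1.07) with a log2 ratio of -0.06 (interval -0.10 to -0.02). The ratio of glula was lower than that of glulb by -0.18 (interval -0.23 to -0.14).

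A further glutamine synthetase gene, glulc, was found in the table as zgc:152741 on chromosome 21, from 12970513 to 12977823 (Zv9). It had 922 male against 1157 female reads, 15.0 against 17.7 CPM. Its log2 ratio of -0.24 (interval -0.37 to -0.11) was close to that of glula, with a wider interval because of its fewer reads. Summed over the 3 genes, glutamine synthetase reads were 672 against 772 CPM, 1.15-fold higher in the female library (log2 ratio -0.20, interval -0.22 to -0.18).

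The share of glula in the glutamine synthetase reads was 73.4% in the male library (interval 72.9 to 73.8) and 75.6% in the female library (75.2 to 76.0). The share of glulb was 24.4% (24.0 to 24.8) against 22.1% (21.8 to 22.5), and that of glulc was 2.24% against 2.30%. So glula held a somewhat larger and glulb a somewhat smaller part of the reads in the female library, while the intervals for glulc overlapped. How reads that match more than 1 of these similar genes were assigned is not given in the sources used here, so the division of reads among the copies is uncertain, and the sum is the firmer value.

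**Figure D2:**
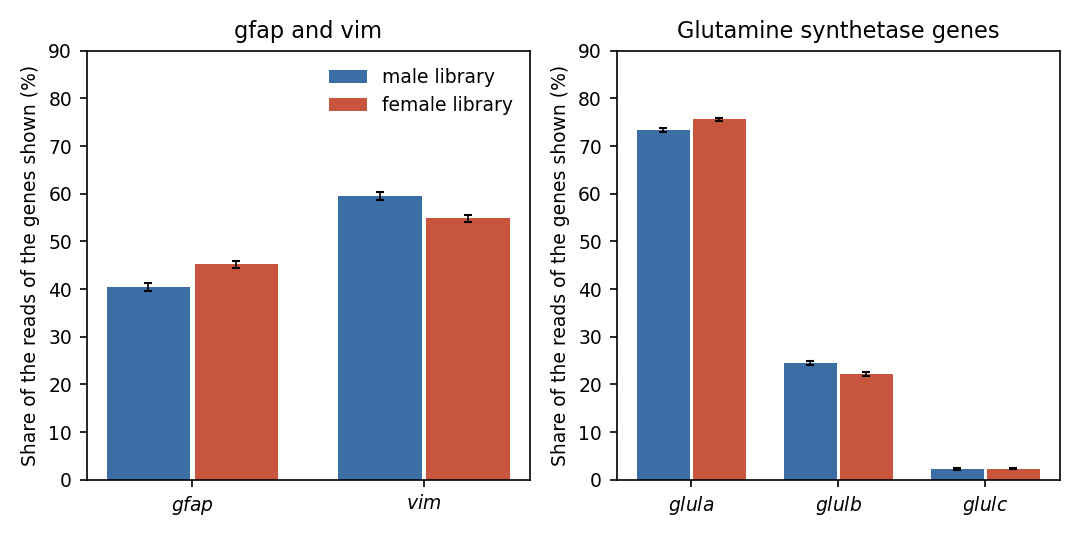
Share of reads in percent, within the male and the female library, of gfap and vim (left, of their sum) and of glula, glulb and glulc (right, of their sum); error bars are exact 95% binomial intervals and 1 library stands behind each bar. The share of gfap is 40.4% (male) and 45.2% (female), and that of glula 73.4% and 75.6%.

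Over the 10 pairs that the 5 genes form, the interval of the difference between their ratios excluded 0 in 8. The exceptions were gfap with s100b and vim with glulb (-0.04, vim minus glulb, interval -0.10 to 0.02). The 5 genes therefore did not share 1 ratio within counting error, and neither both filament genes nor both main glutamine synthetase genes stood together. Whether these differences exceed the spread between pools of fish cannot be told from 1 pool per sex.

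The place of each gene among other genes depends on its depth, because ratios spread less where reads are many. For each gene the comparison set was the measured genes with a mean CPM within 2-fold of its own. Of 1321 such genes for s100b, 11 (0.833%) had a lower ratio. For gfap this held for 57 of 4545 genes, and for glula for 11 of 654 (1.68%), among them s100b. For vim 10.3% and for glulb 15.0% of the genes of like level had a lower ratio. Against all measured genes, whatever their level, the shares with a lower ratio were 10.7% for gfap, 12.3% for s100b, 17.1% for glula, 31.2% for vim and 38.3% for glulb. The trend of the ratio on expression level lay on the male side at the level of each gene. It stood at 0.046 for gfap, 0.058 for vim, 0.069 for s100b, 0.068 for glula and 0.065 for glulb. The shares at like level include this shift and are not centred on it. All these shares describe positions within this pair of libraries and are not tests.

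**Figure D3:**
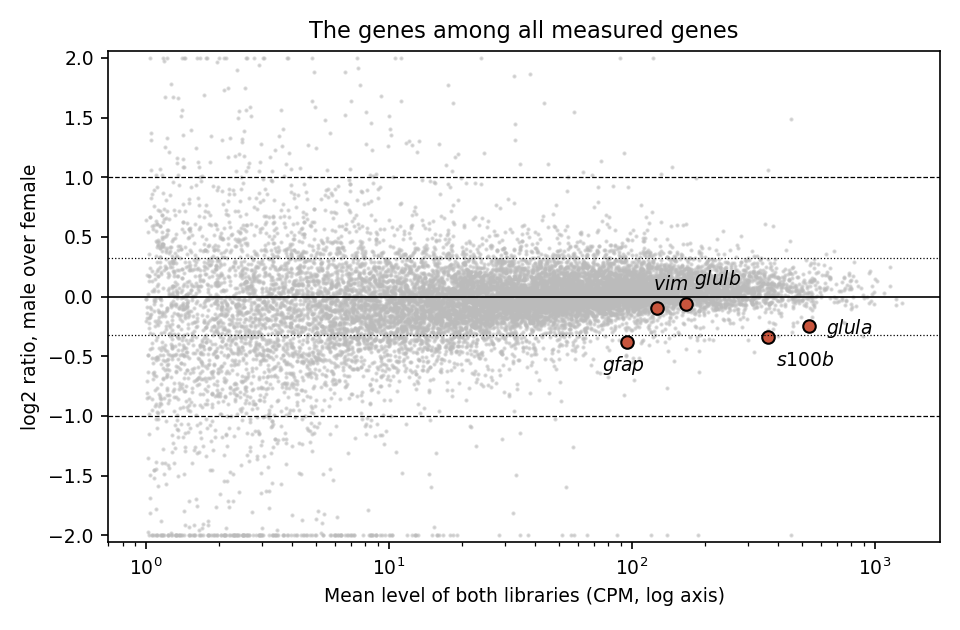
Log2 ratio of male over female against mean level (CPM, log axis) for all 14756 measured genes (grey) and the 5 genes (red), from 1 library per sex; dashed lines mark 2-fold and dotted lines a 25% higher level, and the 209 genes beyond 2 on the log2 scale are drawn at the edge. The genes gfap, s100b and glula lie on the lower border of the grey cloud at their level, and vim and glulb lie inside it.

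The genes below s100b and glula at like level, named after their values were seen, included other genes of glia. The sodium bicarbonate cotransporter gene slc4a4a stood below both (16377 against 23993 reads, log2 ratio -0.46, interval -0.49 to -0.43). The astroglial gap junction gene gja1b, in the table as cx43, stood below glula (25195 against 32952 reads, -0.30, interval -0.32 to -0.27). Other genes of the radial glia list described below stood above glula at like level. These were slc1a2b (-0.21), aldocb (-0.09), slc1a3b (-0.03), mdkb (-0.02), cyp19a1b (0.02) and ndrg2 (0.02). Of that list only slc4a4a stood below s100b at like level. Genes of other origin were there too, among them epd, which encodes the secreted protein ependymin, made in fish by cells of the meninges (48706 against 65154 reads, -0.33, interval -0.35 to -0.31), the yolk precursor genes vtg1 (-8.19) and vtg2 (-10.44) and cd74a (-0.36), a gene of antigen-presenting cells. The ceruloplasmin gene cp (-0.34) stood below s100b. It is counted among the liver markers below, where it was the only measured gene that did not pass 2-fold, so its origin is not settled here. The kainate receptor gene grik6 stood below both s100b and glula (16181 against 22184 reads, -0.37, interval -0.40 to -0.34). The stathmin gene stmn1b stood just below glula (25887 against 32621 reads, -0.24, interval -0.27 to -0.22). Below gfap at like level, mlc1 (-0.41) was the only gene of the radial glia list. Others there, named likewise, were vtg2, tfa (-3.59), the globin gene hbaa1 (-0.49), the keratin gene krt8 (-0.45) and b2m (-0.40).

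With 2 libraries a gene's pattern is 1 ratio, so no gene can be called most alike. Within 0.05 of the log2 ratio lay 504 other measured genes for gfap (3.42%), 598 for s100b (4.05%), 929 for glula (6.30%), 2218 for vim (15.0%) and 2790 for glulb (18.9%).

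No other row of the table overlapped any of the 5 genes, so reads of an overlapping neighbour do not enter their counts as far as the table shows. The nearest row to gfap was kcnh2 (now kcnh6a), a potassium channel gene 8818 bases away on the same strand, with 1701 against 1330 reads and a ratio in the other direction (0.44, interval 0.34 to 0.55). The nearest row to vim was trdmt1, a tRNA methyltransferase gene 2480 bases away on the other strand, at -0.20 (interval -0.37 to -0.03).

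Other radial glia and astroglia genes were described from a list of 50 genes found in the table, of which 40 were measured. Of these 33 (82.5%) lay below 0, with a median ratio of -0.18. None passed 2-fold. Under the 25% rule 10 of the 40 were higher in the female library, where 12.5% of all measured genes were, and 2 of the 40 in the male library, where 7.18% of all measured genes were. The measured genes with the highest mean CPM were aldocb, an aldolase of astroglia (-0.09), the glutamate transporter gene slc1a2b (-0.21) and cyp19a1b, whose product is the aromatase of radial glia (0.02). Its members differed in direction. Members named after their values were seen are the radial glia fatty acid binding gene fabp7a, with 10442 against 13909 reads (-0.32, interval -0.36 to -0.29), aldh1l1, a folate enzyme gene used as an astrocyte marker in mammals (-0.76, interval -0.88 to -0.65), the nestin gene nes (-0.40, interval -0.54 to -0.26) and, on the male side, the proteoglycan gene cspg5a (0.58, interval 0.53 to 0.64). The stem cell transcription factor gene sox2, named likewise, stood at 8720 against 8491 reads (0.13, interval 0.08 to 0.17). Relative to the median of this list, gfap stood at -0.20, s100b at -0.16 and glula at -0.064, while vim (0.080) and glulb (0.12) turned positive.

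Among other filament genes, 14 of 20 measured lay below 0, the median was -0.16, none passed 2-fold, and under the 25% rule 4 (20.0%) were higher in the female library, where 12.5% of all measured genes were, and 1 (5.00%) in the male library, where 7.18% were. Those with the highest mean CPM were zgc:65851 (0.05), the neurofilament gene nefma (-0.17) and the plectin gene pleca, whose protein links filaments to other structures (0.01). The synemin gene synm, whose protein copolymerises with vimentin and desmin in mammals, stood at 2853 against 3936 reads (-0.38, interval -0.45 to -0.31), as low as gfap. The vimentin-like gene viml, in the table as zgc:73275, stood at -0.16 (interval -0.26 to -0.06). In the female library the 25% rule was passed by the keratin genes krt18b (-0.70, the lowest of the list) and krt8 (-0.45), by nes (-0.40) and by synm. The member that passed the 25% rule in the male library was desma, the muscle desmin gene (0.71, interval 0.50 to 0.93). The list shares nes with the radial glia list, nefla and nefma with the neuron list and desma with the muscle list.

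The other genes of the glutamate-glutamine cycle went both ways, from -0.24 to 0.37, with a median of -0.02 over 20 measured members, 11 of them below 0. None passed 2-fold, and under the 25% rule none was higher in the female library (12.5% of all measured genes) and 2 of the 20 in the male library (7.18% of all measured genes). The measured glutaminase genes, whose enzymes run the reverse step in neurons, were on the male side of 0, glsa at 17219 against 15904 reads (0.20, interval 0.17 to 0.23) and glsb at 24563 against 24327 reads (0.10, interval 0.08 to 0.13). The glutamine transporter gene slc38a3a stood at 0.15 (interval 0.12 to 0.17) and the glial glutamate transporter gene slc1a3b at -0.03 (interval -0.05 to -0.00). The highest mean CPM belonged to gad2, which makes GABA from glutamate (0.09), slc1a2b, counted above as well (-0.21), and the vesicular glutamate transporter gene slc17a6a (0.36). Thus the 3 glutamine synthetase genes were on the female side and glsa and glsb, the glutaminase genes above 1 CPM, on the male side, all by less than 25%, although glulb turned to the male side when set against the median of the other radial glia genes (0.12). The ratios of glsa and glsb stayed above 0 under the 9 scalings and added counts tried for them, with glsb at its lowest (0.032) when the trend on genomic span was removed. Of the glutaminase genes under the minimum, gls2b had 40 against 8 reads (2.34, interval 1.30 to 3.72) and gls2a was listed at 0 in both libraries. Among its measured genes the cycle list shares slc1a2b, slc1a3a and slc1a3b with the radial glia list and gad1b and gad2 with the neuron list.

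The S100 list, which besides relatives of s100b holds anxa2a, the annexin that binds S100A10, had 10 measured members, 8 below 0, with a median of -0.63. At 2-fold 4 (40.0%, against 2.70% of all measured genes) were higher in the female library. These were s100s (140 against 644 reads, -2.11, interval -2.39 to -1.85), s100a1 (35 against 150 reads, interval -2.59 to -1.47), s100t (30 against 111 reads, -1.78, interval -2.43 to -1.21) and icn2 (308 against 727 reads, -1.15, interval -1.35 to -0.96), the last of them named after its value was seen. All 4 had far fewer reads than s100b. Of them, s100a1 (0.57 CPM male, 2.30 CPM female) and s100t (0.49 and 1.70 CPM) reached the minimum only through their female level. That fixes the direction of their calls, so the share at 2-fold is not a result about the family. At a minimum of 5 CPM the list median was -0.48. The measured members with most reads were anxa2a (-0.41), s100a10b (0.08) and icn (-0.43). The summed level of the list was 148 CPM (male) and 191 CPM (female). Small paralogues can share reads, and how such reads were assigned is not given in the sources used here.

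**Figure D4:**
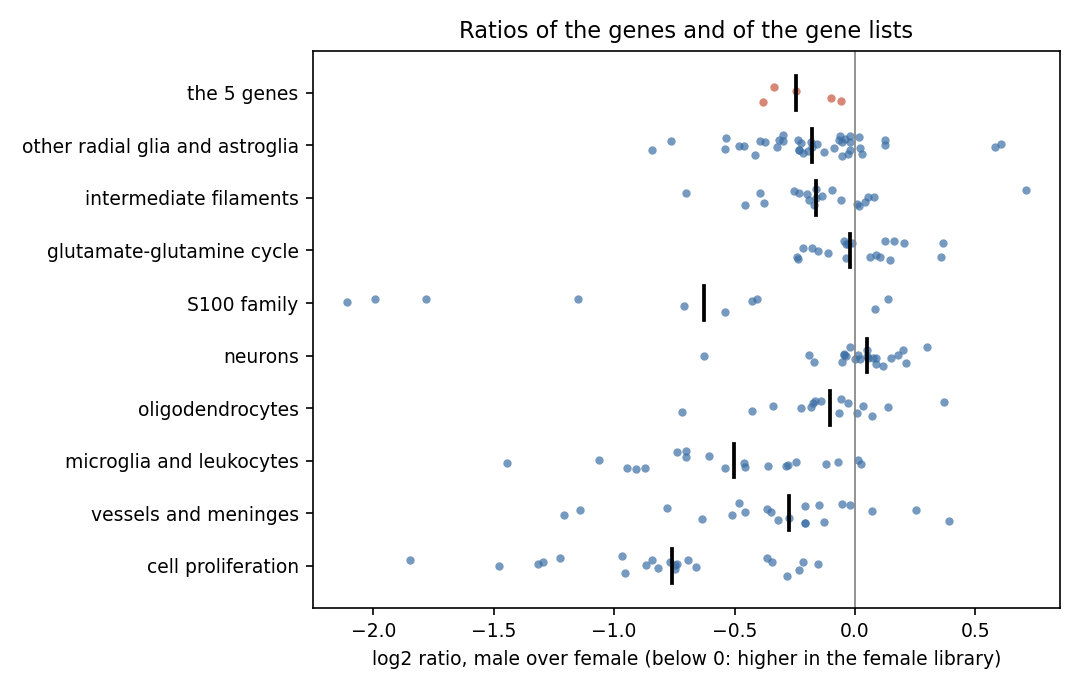
Log2 ratios of male over female of the 5 genes (red) and of the measured members of each gene list (blue), 1 point per gene and 1 library per sex; black bars mark medians and height within a row has no meaning. The 5 genes lie within the range of the other radial glia list (median -0.18), below most neuron genes (median 0.05) and nearer to 0 than the median of the proliferation list (-0.76).

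Markers of other cells and tissues moved as well, and their part in the ratios of the 5 genes was not tested. Neuron markers had a median of 0.05 (23 of 27 measured, 9 below 0, 11564 against 11069 CPM in sum), which turned to -0.018 with the trend on expression level removed. Oligodendrocyte markers had a median of -0.10 (16 of 18 measured, 2419 against 2564 CPM in sum). On the female side were markers of microglia and leukocytes (median -0.50, 20 of 24 measured, 810 against 1028 CPM), of vessels and meninges (-0.28, 21 of 24, 553 against 692 CPM) and of cell proliferation (-0.76, 22 of 29, 221 against 300 CPM). Markers of liver (-3.60, 24 of 28, 251 against 2851 CPM) and of oocytes and germ cells (-3.39, 14 of 22, 22.9 against 135 CPM) were on that side too. The oocyte and germ cell genes were low in the male library, so they reach a minimum largely through their female level. Their median therefore depends on the minimum, with -3.24 without one and -5.40 at 5 CPM. On the male side were the medians of the Müller glia and retina list (1.07, 21 of 32, 258 against 137 CPM), telencephalic markers (0.68, 22 of 23, 1371 against 1084 CPM) and skeletal muscle markers (0.22, 22 of 26, 833 against 761 CPM). The retina list is not specific to retina, since it holds the pineal opsin gene exorh (2971 against 1159 reads, 1.45, interval 1.35 to 1.55). The muscle list was split, with 6 of 22 measured genes below 0. At 2-fold 3 of its genes were higher in the female library (2.70% of all measured genes) and 3 in the male library (1.06%). Müller glia, the radial glia of the retina, also express gfap, vim and glutamine synthetase, and their marker rlbp1b stood at 410 against 528 reads (-0.28, interval -0.47 to -0.09). That was the lowest ratio of the list, where 19 of 21 measured genes lay above 0. Neither this gene nor the list median shows the level of Müller glia. The paralogue of rlbp1b, rlbp1a, on chromosome 7, was listed at 0 in both libraries. So was the microglial gene p2ry12, and either 0 may be a failed estimate. These genes were also named after their values were seen.

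The sign of the 5 ratios held after scaling by TMM factors or by library totals, in the deposited normalized columns, with no count or 5 added before the log, with either trend removed and relative to the neuron list. With the trend on genomic span removed, however, glulb stood at -0.0079, too near 0 to give a direction. The sign turned for vim and glulb when set against the median of the other radial glia genes. The call of gfap under the 25% rule was lost under that reference alone (-0.20), and the call of s100b was lost there (-0.16) and with the trend on genomic span removed (-0.29).

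**Figure D5:**
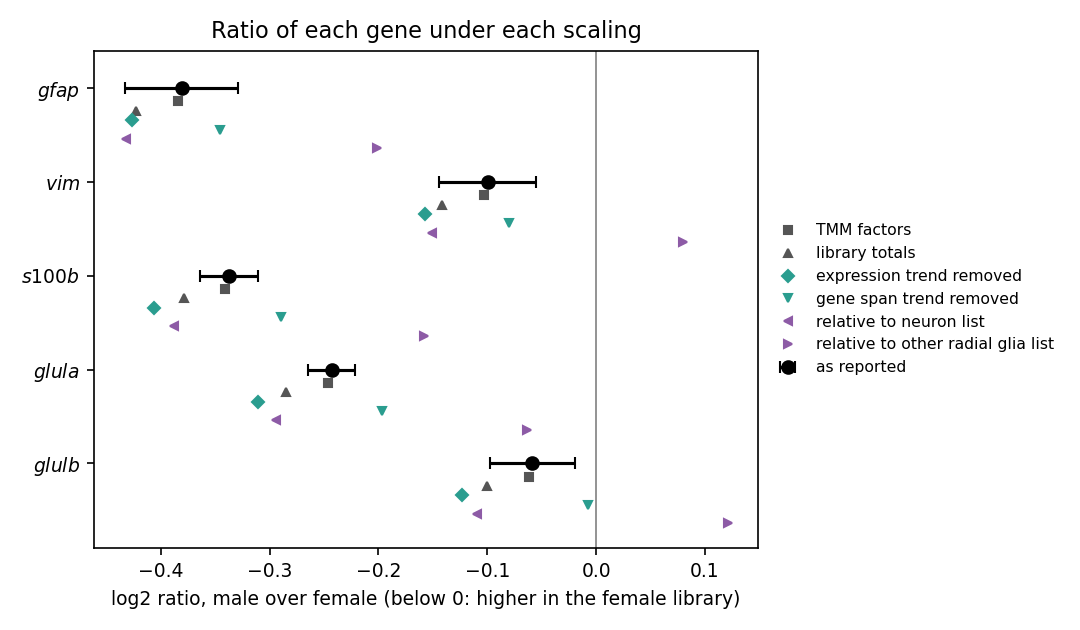
Log2 ratio of male over female of each of the 5 genes as reported (black, with the 95% counting interval, 1 library per sex) and under 6 other scalings (coloured symbols below each black point). The symbols for gfap, s100b and glula lie left of 0 under each scaling shown, and those for vim and glulb cross 0 only relative to the other radial glia list.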

How the data were processed

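Per the labels' protocols, RNA from the brains of 5 pooled fish per sex was extracted with TRIzol (integrity number 8 to 9, 3 µg per library) and sequenced as single reads of 51 bp. The submitters' processing notes name Zv9 as genome build and TopHat 1.4.1 and DESeq as tools, without saying what each did. Which program and annotation counted the reads, whether by strand, and what became of reads with several matches is not given in the sources used here.

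The deposited table holds 27423 rows. Per the file headers 2 columns hold raw counts. The deposited values are estimated counts: among those above 0, only 1.56% (male) and 1.92% (female) were whole within 0.001. The other value columns, normalized counts per the file headers, hold deposited log2 values. Rows that share an Entrez ID were added up and the sums rounded. Current symbols came from the RefSeq table of GRCz12tu for 22112 genes (81.6%), without its coordinates.

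Size factors (median of ratios) were 0.970 (male) and 1.03 (female). Ratios used 0.5 added to each count and exact Clopper-Pearson 95% intervals of the male share, and differences between ratios exact conditional intervals of the odds ratio. The intervals treat the rounded estimates as independent reads and cover counting error only. Reads carry no molecular identifiers, so copies of the same molecule could not be told apart. Error in assigning reads to genes is also left out, so the intervals may be too narrow. A call needs a mean of 1 CPM, a fold of 2 (or a level 25% higher) and an interval that excludes 1. The intervals of single ratios and the 2-fold rule were tested on simulated data with counting noise alone. The 25% rule and the differences between ratios were not.

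The members and lists were chosen with earlier results of these data known. The rule for names takes all 5 members, the filament and glutamate lists, and from other lists up to 3 genes past 2-fold and the 3 with the highest mean. For markers of other cells, values of the list mostly stand in place of names. Tools were edgeR 4.0.16 (TMM) under R 4.3.3, statsmodels 0.14.6 (lowess, fraction 0.3), scipy 1.17.1, matplotlib 3.10.9, pandas 2.3.3 and numpy 2.4.6 under Python 3.11.15.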

Additional observations from a re-analysis of the deposited data

How the results depend on the processing

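No paired analysis was possible because each sex has 1 library, and no library could be left out for the same reason. Shares by coding length were not run, since transcript lengths were not used here. Taking the single row of a symbol changes nothing by construction, as each gene has 1 row. Of the 9 other alternatives per gene, 9 gave a negative ratio for gfap, s100b and glula and 8 for vim and glulb. Values outside the counting interval were, by library totals, -0.38 for s100b, -0.28 for glula and -0.10 for glulb. With the expression trend removed they were -0.16 for vim, -0.41 for s100b, -0.31 for glula and -0.12 for glulb. With the gene span trend removed they were -0.29 for s100b, -0.20 for glula and -0.0079 for glulb. Relative to the neuron list they were -0.15 for vim, -0.39 for s100b, -0.29 for glula and -0.11 for glulb. Relative to the other radial glia list they were -0.20 for gfap, 0.080 for vim, -0.16 for s100b, -0.064 for glula and 0.12 for glulb. The cause was not tested. Without a minimum level the 2-fold counts were 319 (male) and 656 (female) (main counts 156 and 399), and at a minimum of 5 CPM 59 and 112. Under the 25% rule the 5 CPM minimum left 659 and 921 (main counts 1060 and 1843), and the counts were 1390 and 1386 with the expression trend removed and 857 and 2135 by library totals. With another minimum level, fewer or more genes entered by construction. Removing the expression trend or scaling by library totals changed the ratios themselves. Of the list medians under alternatives, 58 moved by less than 0.1, 11 moved further (the oocyte and germ cell list most, from -3.39 to -5.40 at 5 CPM) and 1 turned sign, neurons with the expression trend removed (0.05 to -0.018). Depth does not limit the members, whose intervals are narrow. The lack of replicate libraries does.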
